A study of Homo sapiens with 6 samples.

Results

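Matrix metalloproteases and their tissue inhibitors (TIMPs) were followed in OVCA432 cells, a line established from human high grade serous ovarian carcinoma. Cells with and without microfibrillar associated protein 5 (MFAP5), a glycoprotein that is secreted into the matrix and sits on microfibrils, were compared. The set comprised 10 listed genes, MMP1, MMP7, MMP10, MMP14, MMP15, MMP24, TIMP1, TIMP2, TIMP3 and ADAMTS1. Every probe set of the array annotated to exactly 1 of these symbols was used, which gave 21 of the 54675 probe sets on the array. Cells were grown with serum, kept in serum-free medium for 24 h and then given fresh serum-free medium with 200 ng/mL of recombinant human MFAP5 or with an equal amount of solvent. RNA was taken 48 h later from 3 independently prepared samples per group, and each sample was hybridised to its own Affymetrix U133 Plus 2.0 array. All samples came from 1 cell line, and the labels name no other cells and no further agent in either group.

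Matrix metalloproteases are zinc enzymes that are made as inactive proforms and cut collagens, proteoglycans and other proteins outside the cell. TIMPs bind the active site of these enzymes and block it, and TIMP2 also helps MMP14 at the cell surface to activate proMMP2. In ovarian carcinoma these enzymes and inhibitors are made by tumour cells and by the surrounding stroma, and they are studied for their part in peritoneal invasion.

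The 250 bases before the annotated start are shown for MMP10 and TIMP1, which had the largest rises among the tested probe sets, for TIMP3, of which every probe set rose, and for MMP7, a gene of the same chromosomal cluster as MMP10 that was not called. Sequences are from RefSeq (GRCh38.p14) and run 5′ to 3′ on the strand of the gene. Windows of 7 of the 10 genes were used, and those of MMP1, TIMP2 and ADAMTS1 were not analysed here. Capitals mark matches on either strand to TGANTCA (AP-1), TGACGTCA (the cAMP response element), AGGAAG (a site of ETS factors of the PEA3 type), GGGCGG (the GC box) or TATAAA.
MMP10, chr11:102780629-102780878, minus strand: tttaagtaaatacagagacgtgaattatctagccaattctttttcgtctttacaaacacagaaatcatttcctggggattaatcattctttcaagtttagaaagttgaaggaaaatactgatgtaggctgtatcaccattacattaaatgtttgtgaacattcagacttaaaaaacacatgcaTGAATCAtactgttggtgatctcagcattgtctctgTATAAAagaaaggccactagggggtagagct
MMP7, chr11:102530748-102530997, minus strand: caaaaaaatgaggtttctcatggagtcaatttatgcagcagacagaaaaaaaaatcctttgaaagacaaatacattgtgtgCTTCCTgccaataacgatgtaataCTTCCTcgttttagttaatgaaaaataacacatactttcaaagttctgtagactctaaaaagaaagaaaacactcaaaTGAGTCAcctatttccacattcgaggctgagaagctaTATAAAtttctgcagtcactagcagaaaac
TIMP1, chrX:47582186-47582435, plus strand: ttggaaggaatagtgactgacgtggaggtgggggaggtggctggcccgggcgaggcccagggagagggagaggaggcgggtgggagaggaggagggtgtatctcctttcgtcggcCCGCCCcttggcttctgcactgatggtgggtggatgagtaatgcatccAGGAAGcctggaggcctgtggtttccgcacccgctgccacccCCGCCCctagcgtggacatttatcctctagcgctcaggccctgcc
TIMP3, chr22:32801455-32801704, plus strand: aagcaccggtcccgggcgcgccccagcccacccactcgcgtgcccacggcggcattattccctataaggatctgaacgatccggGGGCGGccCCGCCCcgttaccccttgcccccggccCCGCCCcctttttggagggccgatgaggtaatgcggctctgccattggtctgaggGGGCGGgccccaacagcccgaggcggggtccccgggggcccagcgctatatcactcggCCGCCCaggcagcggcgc
MMP10 and MMP7 had TGANTCA and TATAAA at like distances. TGAATCA lay 67 to 61 bases before the start of MMP10 and TGAGTCA lay 67 to 61 bases before the start of MMP7, each followed by TATAAA, at 31 to 26 bases in MMP10 and at 30 to 25 bases in MMP7. MMP7 also held AGGAAG on the opposite strand, at 169 to 164 and 145 to 140 bases, and MMP10 held none. TGANTCA was found in 6.57% and TATAAA in 10.7% of the 35116 upstream windows of the same length. TIMP1 held AGGAAG at 87 to 82 bases (a motif of 28.7% of windows) and the GC box at 135 to 130 and 45 to 40 bases, but neither TGANTCA nor TATAAA. TIMP3 held 5 GC boxes, a motif of 42.6% of windows. MMP14, MMP15 and MMP24 held 1, 5 and 3 GC boxes and none of the other motifs. TGACGTCA, found in 1.65% of windows, was in none of the 7. None of the matches in these windows overlapped a match to another motif. The MMP7 and MMP10 windows had a GC content of 33.6% and 34.4%, and the others lay between 56.8% and 77.6%, beside a median of 58% over all windows. Such matches describe letters only and do not show that a factor binds.

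With MFAP5, mRNA of the inhibitors TIMP1, TIMP2 and TIMP3, of the stromelysin MMP10 and of the protease ADAMTS1 was higher. For TIMP2 this held for 2 of its 3 probe sets. Of the 21 probe sets, 13 were bright enough to be tested and 10 of them rose, none fell and 3 were not called. Counted by the brightest probe set of each gene, 5 genes rose (TIMP1, MMP10, ADAMTS1, TIMP3 and TIMP2), 2 were not called (MMP7 and MMP14) and 3 were too dim to be tested (MMP1, MMP15 and MMP24). A probe set is a group of short probes for 1 transcript, and its value is a MAS5 signal, a brightness that had been set to the same trimmed mean, 500.07, on each array. Probe sets whose mean log2 signal lay below the median of the array, a signal of 53.7, were not tested. Groups were compared with limma on log2 signals, and a probe set was called where the p-value, adjusted over all 27307 tested, was below 0.05. By that rule 13.5% of all tested probe sets were higher and 11.8% lower with MFAP5, and by the brightest probe set 14.6% of genes were higher and 15.3% lower. The median log2 difference of the 13 member probe sets was 0.66, beside 0.02 over all tested probe sets. The groups were apart, with every MFAP5 value above every control value, in 11 of the 13, beside 21.9% of all tested probe sets, and in none of the 13 were they apart downwards, beside 19.1% of all. The 10 genes were chosen with earlier results of these data known. These counts and medians therefore describe the listed genes and do not test whether such genes rise more often than others. The control mean of each of the 13 exceeded the signal of the filter. The balance of calls over the whole array depended on the scaling: centring each array on its median moved the median difference of all tested probe sets from 0.02 to -0.12 and gave 2302 higher and 5975 lower, against 3679 and 3209 as deposited. Under that centring 9 member probe sets were higher and 0 lower. In these whole-culture samples, a change in the number of cells making a transcript and a change in RNA per cell cannot be told apart.

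**Figure D1:**
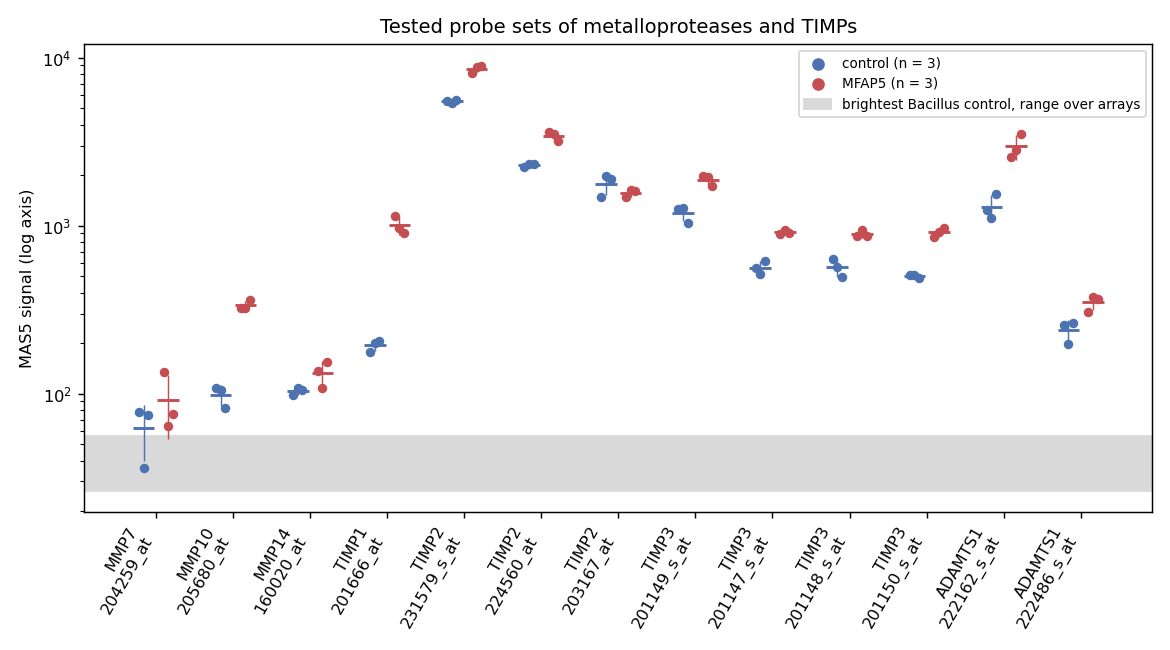
MAS5 signal (log axis) of the 13 tested probe sets on each array, with 3 control and 3 MFAP5 points, the mean as a bar and the SD as a line. The grey band is the range over the 6 arrays of the brightest Bacillus control, 26.4 to 55.9. MFAP5 points lie above control points in 11 of the 13, and overlap them for MMP7 and for TIMP2 probe set 203167_at.

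The arrays had the markers of an epithelial ovarian line. The 9 epithelial and serous ovarian markers, among them EPCAM, KRT7, PAX8 and WT1, were above the brightest of 27 Bacillus control probe sets, whose RNA human cells do not make, on all 6 arrays. That control had a signal of 26.4 to 55.9 and serves here as the background. Of the 8 fibroblast markers, COL1A1 and COL1A2 were above it on all 6 arrays, and COL3A1, DCN and PDGFRA were at or below it on all 6. The summed fibroblast signal was 275 to 352 in control and 284 to 390 in MFAP5 samples. Of these markers only COL1A1 was bright enough to be tested, and it was not called. No leukocyte (6 on the array) or endothelial (5) marker exceeded the background on all 6 arrays. The summed leukocyte signal was 118 to 272 in control and 136 to 287 with MFAP5. The endothelial sum was 146 to 239 in control and 216 to 252 with MFAP5. No leukocyte marker was bright enough to be tested. Of the endothelial markers CDH5 and VWF were tested and not called, and the others were too dim. For the untested markers a lack of calls carries no information. Of the epithelial markers 4 rose and 1 fell, with summed signals of 90212 to 100440 in control and 102030 to 109680 with MFAP5, and their part in the results was not tested. RNA integrity was read by setting the 3′ end of a control transcript against its 5′ end on the log2 scale. Between the groups it differed by 0.03 for GAPDH (two-sided exact permutation p = 0.5) and by -0.01 for ACTB (two-sided exact permutation p = 0.6).

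TIMP1, a secreted inhibitor of most matrix metalloproteases, had the largest difference among the 13 tested probe sets. Its only probe set, 201666_at, had signals of 177, 201 and 207 in control and of 1137, 974 and 903 in MFAP5 samples. All 3 MFAP5 values were far above the control values, and the spread within each group was small beside the gap. The rise was 5.14-fold (95% confidence interval 4.24 to 6.23), with a log2 difference of 2.36 ± 0.12 (SE, n = 3 arrays per group; limma adjusted p = 1.41e-06).

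TIMP2, which both inhibits matrix metalloproteases and takes part in the activation of proMMP2, gave different answers by probe set. Probe set 231579_s_at, the brightest, had signals of 5515, 5399 and 5608 in control and of 8167, 8831 and 8882 in MFAP5 samples. It rose 1.57-fold (95% confidence interval 1.43 to 1.72; limma adjusted p = 5.53e-05, n = 3 each). Probe set 224560_at had signals of 2222, 2317 and 2343 in control and of 3613, 3500 and 3199 in MFAP5 samples, a rise of 1.497-fold (interval 1.34 to 1.67; limma adjusted p = 0.00027, n = 3 each). The groups were apart in both probe sets.

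The third TIMP2 probe set, 203167_at, did not follow. Its signals were 1488, 1966 and 1890 in control and 1479, 1634 and 1608 in MFAP5 samples, and the groups overlapped. Its log2 difference of -0.17 ± 0.11 (SE, n = 3 each) was not called (limma adjusted p = 0.277), with an interval of -0.41 to 0.07. Without control replicate 1, the lowest of the 3 controls, the difference was -0.29 and was called lower (limma adjusted p = 0.0442). The change of 231579_s_at exceeded that of 203167_at by 0.82 on the log2 scale, and the change of 224560_at exceeded it by 0.75. In both comparisons the per-array values of the 2 groups were apart, and the two-sided exact permutation p was 0.1, the smallest that 3 against 3 arrays can give. With the mean of the 3 probe sets the log2 difference of TIMP2 was 0.35, and TIMP2 remained called. The platform annotation lists a RefSeq mRNA as the source sequence of 203167_at, and other sequences for the 2 that rose. Beyond that, which TIMP2 transcripts each probe set reads is not given in the sources used here.

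TIMP3, an inhibitor that binds to the extracellular matrix and also blocks ADAM17 and several ADAMTS proteases, rose by all 4 of its probe sets. The brightest, 201149_s_at, had signals of 1250, 1278 and 1044 in control and of 1974, 1948 and 1724 in MFAP5 samples. It rose 1.58-fold (95% confidence interval 1.36 to 1.84; limma adjusted p = 0.000885, n = 3 each). Probe set 201150_s_at had signals of 506, 507 and 489 against 858, 919 and 966, a rise of 1.82-fold (interval 1.58 to 2.10; limma adjusted p = 0.000118, n = 3 each).

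The other two had differences close to that of the brightest. Probe set 201147_s_at had signals of 558, 513 and 619 in control and of 897, 939 and 906 in MFAP5 samples, and rose 1.63-fold. Probe set 201148_s_at had signals of 630, 569 and 493 in control and of 868, 941 and 868 in MFAP5 samples, and rose 1.59-fold. In all 4 the groups were apart. These probe sets target 1 gene and share its RNA, so they are not 4 independent observations.

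TIMP1 had a larger difference than the other inhibitors in these samples. Its log2 difference exceeded that of the brightest TIMP2 probe set by 1.71 and that of the brightest TIMP3 probe set by 1.70. For both, the per-array values of the groups were apart (two-sided exact permutation p = 0.1, the smallest possible, and 0.117 after Benjamini-Hochberg adjustment over 7 such pairs). The design cannot bring such a pair below 0.05. TIMP4, the remaining member of the family, had mean signals of 22.0 and 10.8 and was at or below the background on all 6 arrays.

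MMP10, or stromelysin 2, a secreted enzyme that cuts proteoglycans and other matrix proteins and can activate procollagenases, was the only metalloprotease of the MMP type among the 10 genes that was called. Its probe set 205680_at had signals of 107, 106 and 82.2 in control and of 326, 326 and 362 in MFAP5 samples. The lowest MFAP5 value was well above the highest control value. The rise was 3.45-fold (95% confidence interval 2.66 to 4.48), with a log2 difference of 1.79 ± 0.17 (SE, n = 3 each; limma adjusted p = 5.97e-05). With 50 added to each signal the log2 difference was 1.39 and the call was kept.

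The difference of TIMP1 was 0.57 larger than that of MMP10 on the log2 scale. The per-array values, taken from the control mean, overlapped narrowly, with a highest control value of 0.338 and a lowest MFAP5 value of 0.325. The two-sided exact permutation p was 0.2 (0.2 adjusted over the 7 pairs). With 3 against 3 arrays this test cannot go below 0.1, so it cannot decide whether inhibitor and enzyme rose unequally.

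MMP7, or matrilysin, a small epithelial metalloprotease, was not called. Its signals were 77.3, 36.3 and 74.4 in control and 135, 63.8 and 75.7 in MFAP5 samples. The groups overlapped, with 1 MFAP5 sample high and 1 control sample low. The log2 difference of 0.55 had an interval of -0.29 to 1.38 (limma adjusted p = 0.323, n = 3 each), which leaves room for a rise of 2.61-fold or a slight fall.

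MMP14, the membrane-bound enzyme that activates proMMP2 with the help of TIMP2, was not called either. Its brightest probe set, 160020_at, had signals of 97.6, 108 and 105 in control and of 137, 109 and 155 in MFAP5 samples. The groups were apart by a narrow margin, since the lowest MFAP5 value was next to the highest control value. The log2 difference was 0.36, with an interval of -0.10 to 0.81 (limma adjusted p = 0.236, n = 3 each). The change of MMP10 exceeded that of this probe set by 1.43 on the log2 scale, with per-array values apart (two-sided exact permutation p = 0.1, the smallest possible).

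**Figure D2:**
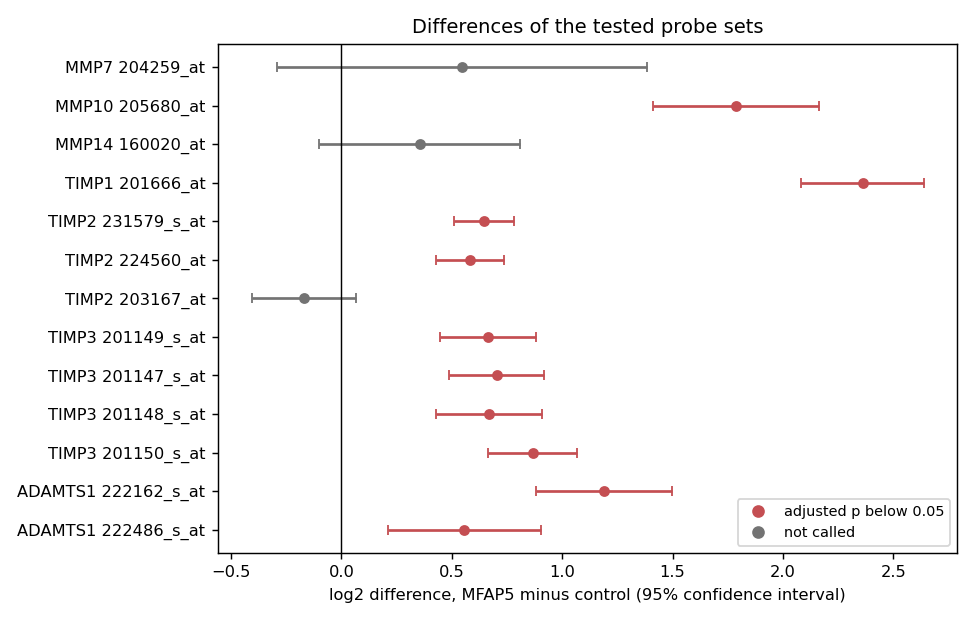
Log2 difference of each tested probe set, MFAP5 minus control, with its 95% confidence interval from limma; red marks an adjusted p below 0.05. The intervals of MMP7, MMP14 and TIMP2 probe set 203167_at include 0, and TIMP1 lies highest at 2.36.

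ADAMTS1, a secreted protease with thrombospondin repeats that cuts versican and aggrecan, rose by both of its probe sets. The brighter, 222162_s_at, had signals of 1249, 1109 and 1547 in control and of 2564, 2812 and 3524 in MFAP5 samples. It rose 2.28-fold (95% confidence interval 1.84 to 2.82; limma adjusted p = 0.000224, n = 3 each). Probe set 222486_s_at had signals of 257, 197 and 263 in control and of 308, 376 and 367 in MFAP5 samples, a rise of 1.47-fold (interval 1.16 to 1.87; limma adjusted p = 0.0261, n = 3 each). The groups were apart in both.

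The rise of the dimmer ADAMTS1 probe set did not hold in every alternative. Its call was lost without control replicate 2 (limma adjusted p = 0.0867), without MFAP5 replicate 2 (0.0972) or without MFAP5 replicate 3 (0.08), while the brighter one was called in every alternative tried. The change of the brighter probe set exceeded that of the dimmer by 0.63 on the log2 scale, with per-array values apart (two-sided exact permutation p = 0.1, the smallest possible).

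The other 8 probe sets of the 10 genes lay below the filter and are given as values without a test. MMP1, the interstitial collagenase, was at or below the background on all 6 arrays, with signals of 18.1, 23.2 and 13.6 in control and of 0.547, 13.8 and 28.9 in MFAP5 samples. No change of MMP1 could be read at this brightness.

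MMP15, a membrane-bound metalloprotease related to MMP14, had signals of 68.7, 82.6 and 51.0 in control and of 41.1, 24.6 and 9.32 in MFAP5 samples by probe set 203365_s_at. Every MFAP5 value was below every control value, and the background was exceeded on 3 control arrays and 1 MFAP5 array. When all probe sets were tested without a filter, this difference was not called (limma adjusted p = 0.0962). The log2 difference was -1.65, with -1.06 without MFAP5 replicate 3 and -0.66 with 50 added to each signal. The second MMP15 probe set, 243883_at, had signals of 8.55, 36.4 and 31.1 against 9.99, 2.90 and 3.23, with overlapping groups and 1 of 6 values above the background.

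MMP24, a membrane-bound metalloprotease best known from the nervous system, gave opposite orders by its 2 probe sets, both near or below the background. Probe set 213171_s_at had signals of 7.44, 9.28 and 10.9 in control and of 26.1, 18.8 and 86.5 in MFAP5 samples, and only 1 value, from an MFAP5 sample, exceeded the background. Probe set 208387_s_at had signals of 4.96, 18.4 and 16.05 against 3.44, 2.06 and 1.09, with every array at or below the background.

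The other 3 probe sets of MMP14 were also dim, and their groups overlapped. Probe set 217279_x_at, of a type that can bind other transcripts, had signals of 27.8 to 52.0 in control and 40.2 to 54.4 in MFAP5 samples. Probe set 202827_s_at had signals of 35.9 to 65.4 and 6.88 to 56.1, and 202828_s_at had signals of 5.35 to 20.6 and 8.22 to 97.6. Tested without a filter, none of the 8 dim probe sets was called, with limma adjusted p-values from 0.0962 to 0.895.

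**Figure D3:**
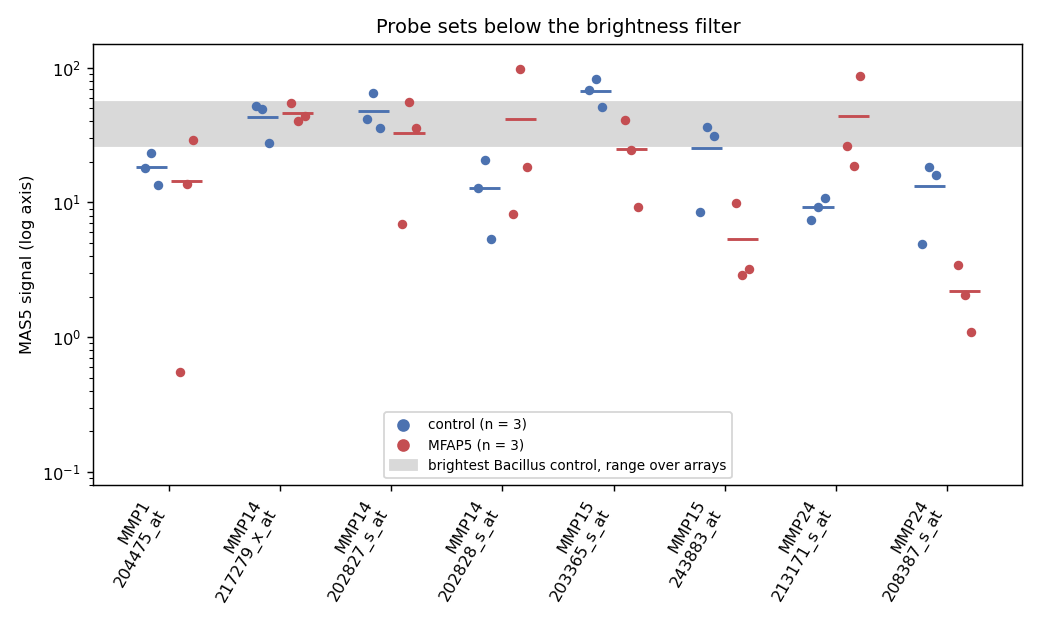
MAS5 signal (log axis) on each array of the 8 probe sets below the brightness filter, with the mean of each group as a bar. Most points lie in or below the grey band of the brightest Bacillus control (26.4 to 55.9), and MMP15 probe set 203365_s_at has its control points highest, at 51.0 to 82.6.

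MMP7, MMP10 and MMP1 belong to a run of 9 neighbouring MMP genes, which in RefSeq order (GRCh38.p14) are MMP7, MMP20, MMP27, MMP8, MMP10, MMP1, MMP3, MMP12 and MMP13. MMP10 was the only one of the 9 to be called. Besides MMP7, the others were below the filter. MMP3, or stromelysin 1, the other stromelysin of this run, had mean signals of 27.2 ± 7.503 (SD) in control and 28.0 ± 7.51 in MFAP5 samples (n = 3 each). MMP13, a collagenase, was at or below the background on all 6 arrays.

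**Figure D4:**
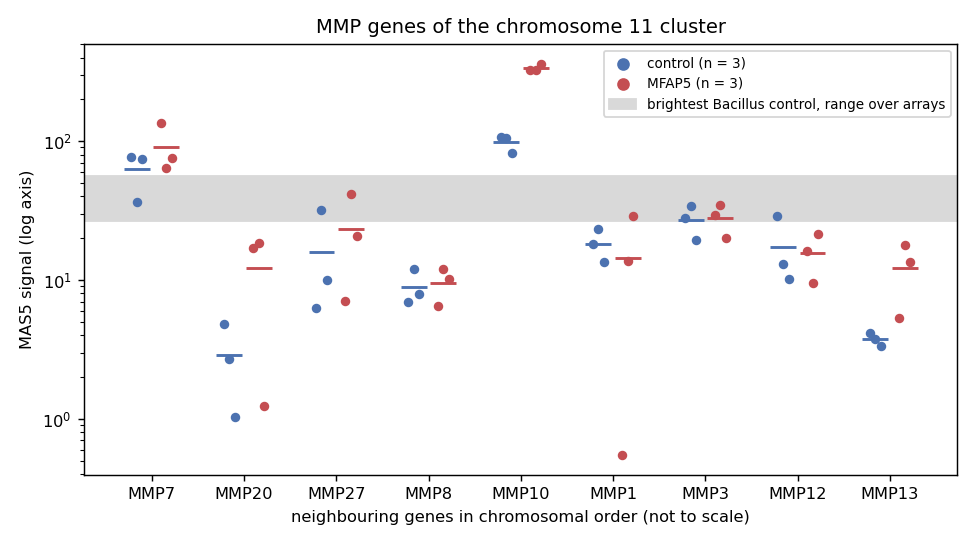
MAS5 signal (log axis) on each array of the brightest probe set of the 9 neighbouring MMP genes, in chromosomal order, with group means as bars. MMP10 stands above the background band in both groups, and its MFAP5 points (326 to 362) lie above its control points (82.2 to 107).

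Genes around these proteases were read from 8 further lists, each gene by its brightest probe set. Over all genes tested the median log2 difference was -0.01, and 14.6% were called higher and 15.3% lower. These lists were chosen with earlier results of these data known, so their counts are descriptive and no list was tested as a set. Of the 17 other matrix metalloproteases listed, 16 were on the array, 3 were tested and none was called. MMP9, a gelatinase, had signals of 166 ± 20.3 in control and 136 ± 20.0 (SD) with MFAP5 (limma adjusted p = 0.311, n = 3 each), and MMP11 had 155 ± 52.0 and 195 ± 18.7 (limma adjusted p = 0.264, n = 3 each). MMP19 and MMP28 lay below the filter and are named because of their values. MMP19 was at or below the background on 3 control arrays and above it on 3 MFAP5 arrays. Its mean signal with MFAP5 was 2.04-fold the mean background of the control arrays, by mean log2 signals. It was not called in the test without a filter (limma adjusted p = 0.0627). MMP28 had signals of 64.8 ± 15.9 in control and 22.1 ± 7.13 with MFAP5 (limma adjusted p = 0.0443 without a filter, n = 3 each), by a probe set of the type that can bind other transcripts. It exceeded the background on 2 control arrays and on 0 MFAP5 arrays, so the size of its difference rests on values within the background.

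In the list of other inhibitors and clearance receptors, 4 of 9 tested genes rose, 2 fell and 3 were not called (median log2 difference 0.28). This list also held the procollagen enhancers PCOLCE and PCOLCE2 and the collagen chaperone SERPINH1, and the 2 genes that fell were among these. THBS1, or thrombospondin 1, which binds several of these proteases, rose 2.40-fold, with signals of 589 ± 29.7 in control and 1415 ± 18.5 with MFAP5 (limma adjusted p = 4.74e-06, n = 3 each). PCOLCE, which enhances procollagen processing and whose C-terminal domain resembles TIMPs, rose 2.33-fold, TFPI2, a Kunitz inhibitor, 1.92-fold and SPOCK2, a testican, 1.45-fold. PCOLCE2 was 1.39-fold lower and the collagen chaperone SERPINH1 1.30-fold lower. SERPINH1 lost its call without control replicate 1 (limma adjusted p = 0.0953) or 2 (0.0908), without MFAP5 replicate 2 (0.0834) or 3 (0.0583), and without the intensity trend (0.0921). RECK, a membrane-anchored inhibitor, had signals of 208 and 199 and was not called (limma adjusted p = 0.788).

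Of the 15 listed ADAM genes, 10 were tested, 4 rose, 2 fell and 4 were not called (median log2 difference 0.00). Many ADAM proteins are proteases that shed proteins from the cell surface. ADAM11, ADAM22 and ADAM23, which were tested and not called, lack protease activity. ADAM9 rose 1.40-fold, with signals of 8828 ± 1081 in control and 12349 ± 1392 with MFAP5 (limma adjusted p = 0.0068, n = 3 each), and ADAM10, a sheddase of Notch and cadherins, rose 1.38-fold. ADAM17, the TNF sheddase that TIMP3 inhibits, rose 1.32-fold (limma adjusted p = 0.00254, but 0.136 with centring on hybridisation controls). ADAM15 was 1.38-fold lower and ADAM19 1.43-fold lower. ADAM33 was 4.42-fold higher by a probe set that can bind other transcripts, with a control signal of 7.32 on 1 array (log2 difference 2.14; limma adjusted p = 0.0442). Without that array, control replicate 2, its log2 difference was 1.12. The control mean of ADAM33, 43.5, lay below the filter signal of 53.7, so it passed the filter only through its MFAP5 values. Its call, 1 of the 4, therefore rests in part on the filter.

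Several of these ADAM calls were lost when arrays were left out. ADAM10 lost its call without control replicate 1 (limma adjusted p = 0.0637) and without MFAP5 replicate 2 (0.0516) or 3 (0.0515), with array-median centring (0.0687) and without the intensity trend (0.0778). ADAM19 lost it without control replicate 1 (0.0886) or MFAP5 replicate 3 (0.0723). ADAM33 lost it without MFAP5 replicate 1 (0.0954), 2 (0.106) or 3 (0.0878), and in 4 alternatives with all arrays, one of them the test without a filter (0.0801). Of 9 tested ADAMTS and ADAMTS-like genes other than ADAMTS1, 2 rose and 7 were not called (median 0.50). ADAMTSL3, which lacks protease activity, rose 1.69-fold (limma adjusted p = 0.00154), and ADAMTS5, an aggrecanase, 1.43-fold (limma adjusted p = 0.0432), a call lost whichever array was left out (0.0526 to 0.113) and in 10 of 14 alternatives in all.

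Among activators and inducers, 3 of 11 tested genes rose, 1 fell and 7 were not called (median 0.12). PLAU, or urokinase, which generates plasmin and so activates proMMPs, rose 2.998-fold, with signals of 91.2 ± 19.7 in control and 271 ± 40.1 with MFAP5 (limma adjusted p = 0.00055, n = 3 each). CLDN1, a claudin that promotes activation of proMMP2, rose 1.54-fold, and RHBDF1, a partner of ADAM17, rose 1.51-fold. BSG, the MMP inducer basigin, was 1.23-fold lower (limma adjusted p = 0.0284), a call lost without control replicate 1 (0.108) or 2 (0.0737) and without MFAP5 replicate 2 (0.0688) or 3 (0.0963), and also without the filter (0.0521), without the intensity trend (0.0934) and with centring on hybridisation controls (0.109).

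Of 18 transcription factors with known sites in MMP promoters, 15 were tested, 11 rose, none fell and 4 were not called (median 0.67). Over all tested genes 14.6% were called higher and 15.3% lower, and this list too was chosen with earlier results known. ETV5 and ETV4, ETS factors of the PEA3 type, rose 3.18-fold and 2.53-fold. The ETV5 signals were 615 ± 20.2 in control and 1954 ± 53.1 with MFAP5 (limma adjusted p = 6.44e-07, n = 3 each). The AP-1 subunit FOS rose 2.08-fold, with signals of 117 ± 7.24 in control and 243 ± 5.41 with MFAP5 (limma adjusted p = 0.00095, n = 3 each), and ETS1 rose 1.94-fold. FOSL1, JUN, JUNB, JUND, CEBPB, STAT3 and SP1 also rose. JUNB lost its call without control replicate 2 (limma adjusted p = 0.0592) or MFAP5 replicate 2 (0.0716), and SP1 with centring on hybridisation controls (0.0777). Of the 10 metalloendopeptidases of the astacin, neprilysin and pappalysin families, 3 were tested and none was called. ECE1, which processes endothelin, had a limma adjusted p of 0.0511, and was called higher without control replicate 3 (0.0388), while ECE2 had 0.542. Of 8 tested matrix and surface substrates, 2 rose and 6 were not called (median 0.17). SDC4, a syndecan, rose 1.36-fold (limma adjusted p = 0.00072), and COL4A1, a basement membrane collagen, 1.27-fold (0.0147). Both calls were lost with centring on hybridisation controls (0.0647 and 0.24), and that of COL4A1 also without control replicate 2 (0.0618), with array-median centring (0.132) and without the intensity trend (0.0587).

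**Figure D5:**
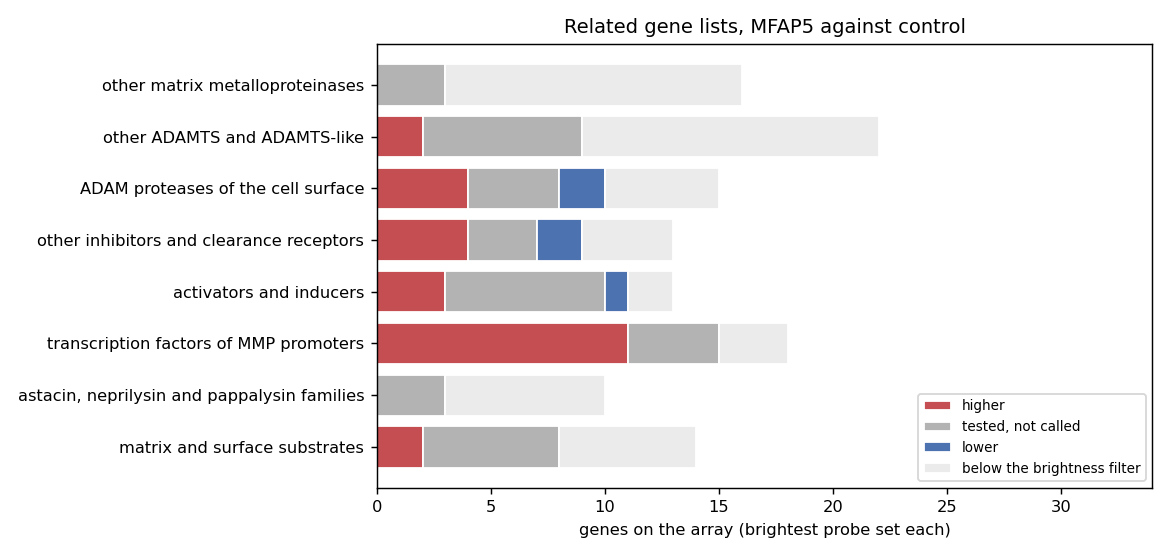
Number of genes in each of the 8 further lists that were higher (red), tested and not called (dark grey), lower (blue) or below the brightness filter (light grey) with MFAP5 against control, each by its brightest probe set. The list of transcription factors has the most called genes, 11 of 15 tested. Over all tested genes 14.6% were called higher and 15.3% lower.

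The genes with a profile most like that of TIMP1, the member with the largest change among the tested probe sets, were KDELR3, a receptor that returns proteins to the endoplasmic reticulum (Pearson r = 0.9994), CCND3, a D-type cyclin (0.9991), and SLC26A2, a sulfate transporter (0.9991). The correlation was taken over the log2 signals of the 6 arrays, which fall into 2 groups, so any gene that differs evenly between the groups has a high value: 878 of the 12209 tested genes that are not members of the set exceeded 0.95. These genes rose by different amounts, KDELR3 1.33-fold, CCND3 1.38-fold and SLC26A2 1.98-fold.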

How the data were processed

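Biotin-labelled cRNA made from 100 ng of total RNA of 6 samples was hybridised, per the labels' protocols. The authors deposited 1 linear intensity per probe set and array, a MAS5 signal; the version of MAS5 is not given in the submitters' processing notes. Each array had been scaled to a 2% trimmed mean of 500.07, which hides any shift common to most transcripts, and differences of dim probe sets are noisy. No value was at or below 0. Depth does not apply to arrays, and the number of arrays limits the precision.

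The 62 control probe sets and those below the median mean log2 signal were left out, which left 27307. Groups came from the titles. The test was that of limma 3.58.1 under R 4.3.3 (lmFit, eBayes with an intensity trend, two-sided, Benjamini-Hochberg adjustment; 4 residual and 6.15 prior degrees of freedom). Intervals are limma 95% confidence limits of the mean log2 difference, also given as folds. They rest on the spread between these samples and on variance moderated over all tested probe sets. Symbols came from the platform annotation (41091 probe sets with 1 symbol, 1801 with several, 11721 with none listed) and all 10 members matched RefSeq by Entrez identifier. Coordinates are given for promoter windows only, since the signals carry no genome build. Fold changes are differences of mean log2 signal.

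The members, lists and tests were chosen with earlier results of these data known. In each list, up to 4 called genes with the largest change and groups apart were named, or the 2 with the smallest p where none was called; others called in a list, MMP19, MMP28, MMP3, MMP13, TIMP4, RECK and the 7 pairs of probe sets were chosen after their values were seen. Alternatives were no filter, a stricter filter at the 75% quantile, 50 added to each signal, quantile normalization, centring on array medians or hybridisation controls, no intensity trend, a replicate block, the mean of a gene's probe sets and leaving out each array. The fit was tested on simulated data.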

Additional observations from a re-analysis of the deposited data

How the results depend on the processing

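Of the 13 tested member probe sets, 11 kept their direction and their side of the threshold in every alternative in which they could be tested. The exceptions were the dimmer ADAMTS1 probe set, not called with array-median centring (0.42, limma adjusted p = 0.0768) or centring on hybridisation controls (0.50, adjusted p = 0.0892) and 0.42 to 0.65 when arrays were left out, and TIMP2 probe set 203167_at, from -0.294 to -0.0928 when arrays were left out. The number of member probe sets called higher was 8 to 10 in all alternatives, and 9 to 10 with an array left out; the number called lower was 0 to 1. With the filter at the 75% quantile MMP7, MMP10, MMP14 and the dimmer ADAMTS1 probe set were not tested. Over all probe sets, 2422 were higher with that filter, 2302 higher and 5975 lower with array-median centring, and 1920 higher and 2011 lower with centring on hybridisation controls. With an array left out, 2532 to 3557 were higher and 2118 to 3117 lower, and 2 to 5 genes of the further lists were lower. ECE2 changed sign with the mean of its probe sets (log2 difference 0.0661, adjusted p = 0.665), and was called in neither. Of the 31 called genes of the further lists, 20 kept their call wherever they were tested. These values do not settle whether the replicate numbers pair the samples. Deviations from the group means correlated at 0.09, -0.01 and 0.17 for equal numbers and at -0.18 to 0.10 for unequal ones. A replicate block gave 10 member probe sets higher and 0 lower. Over all probe sets it gave 4214 higher and 3774 lower, against 3679 and 3209 without it. Signals within the range of the Bacillus controls limit what can be said of MMP1, MMP15 and MMP24.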
